A study of Mus musculus with 4 samples.

Results

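The CREB3 family of membrane-bound transcription factors was followed with both of its activating proteases through single-nucleus RNA counts of mouse cortex and hippocampus. The 6 member genes were Creb3, Creb3l1, Creb3l2, Creb3l4, Mbtps1 and Mbtps2, and all 6 were found by symbol among 32286 features. Creb3l3, a further gene of the family, was not among the members and is counted in a list below. They were chosen by family membership and by the measured UMI counts of Creb3l2, which were much higher in dentate granule neurons of the libraries labelled Sel1L Syn-Cre. Values of the members in granule neurons are therefore given as a description with no test, and tests are given for the other cell classes of the same mice.

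Nuclei came from 2 mice labelled Sel1L flox/flox and 2 mice labelled Sel1L Syn-Cre, each 5 weeks old, with 1 library per mouse. All mice were littermates on the C57BL/6J background and carried the floxed Sel1L allele. The Syn-Cre mice also carried Cre recombinase under the Synapsin I promoter, which is active in neurons, so that SEL1L, the partner of the ubiquitin ligase HRD1 in ER-associated degradation, was targeted in neurons. Nuclei were sorted by flow cytometry. With 2 mice per group, p-values measure the spread between these mice only.

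After filtering, 33323 nuclei remained, with 6805 to 11116 nuclei and 66167019 to 100984599 unique molecular identifiers (UMIs) per library. The targeted gene went against the labels at the RNA level: Sel1l stood at 97.1 and 90.0 CPM (counts scaled to a common library total) in the flox/flox libraries and at 155 and 128 CPM in the Syn-Cre libraries, in reads from 3′ ends that need not cover the deleted part. UMIs of the Cre feature numbered 409 in the library labelled flox/flox replicate 1, 0 in flox/flox replicate 2, 236 in Syn-Cre replicate 1 and 221 in Syn-Cre replicate 2. The calls of the members were therefore also computed without flox/flox replicate 1. Replicates 1 and 2 of both groups also differed in sex, with Xist at 0.436 and 2.19 CPM in replicates 1 and 1614 and 1474 CPM in replicates 2. Among the kept nuclei, 102 barcode sequences occurred in more than 1 library. Clusters were named from marker genes as 19 classes, of which 11 were the main neuron subtypes, and 4903 neurons stayed without a subtype name. The endothelial-like class also carried the fibroblast marker Slc6a13. In flox/flox replicate 2 this class had 36 nuclei and 69783 UMIs, so its flox/flox means of sparse genes rest on few UMIs.

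CREB3 proteins are bZIP transcription factors held in the ER membrane by a single transmembrane helix. When they are carried to the Golgi they are cut by site-1 protease, encoded by Mbtps1, and then by site-2 protease, encoded by Mbtps2, and the freed N-terminal part enters the nucleus. The same proteases cut ATF6 and the sterol regulatory element-binding proteins. Creb3l2, also called BBF2H7, is best known from cartilage cells, where it drives the COPII coat gene Sec23a and thereby collagen secretion. Creb3l1, also called OASIS, is known from bone-forming cells and astrocytes, Creb3, also called Luman, from Golgi stress, and Creb3l4 from prostate and sperm cells. Transcript counts say nothing of the cleavage step, so the values below concern the supply of precursor and protease RNA.

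Creb3l2 lies on the minus strand of chromosome 6 (chr6:37327255-37442146 in GRCm38, 114892 bases). The 250 bases before its RefSeq start are shown because Creb3l2 is the member called in more classes than any other member, and they are chr6:37442149-37442398 on the minus strand of GRCm38.p6, with capitals for the letters TGACGT, the core that cAMP response elements and unfolded protein response elements share:
Creb3l2: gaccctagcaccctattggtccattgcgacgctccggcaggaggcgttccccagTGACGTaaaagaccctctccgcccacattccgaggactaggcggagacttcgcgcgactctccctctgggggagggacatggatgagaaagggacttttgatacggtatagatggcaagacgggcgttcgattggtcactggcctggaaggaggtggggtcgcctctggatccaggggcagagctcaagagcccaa
Searched on both strands, TGACGT stood in 7.513% of 32851 RefSeq promoter windows of 300 bases, and among the 7 member windows it was in that of Creb3l2. The longer motifs that contain it, TGACGTCA and TGACGTGG, were in none of the 7 windows, and neither were the ER stress response element, its second form, the amino acid response element TGATGCAA or the sterol regulatory element TCACCCCAC. These windows cover 5 of the 6 members, with 3 windows for Creb3l4. A match of letters is a description and not a binding site.

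In the flox/flox libraries Creb3l2 was highest in glia, vessels and a few neuron types. CPM here and below are computed on UMIs summed over the nuclei of a class in a library and scaled by TMM. The summed CPM of marker lists and the CPM used to rank genes by likeness to Creb3l2 are not scaled by TMM. The flox/flox mean of Creb3l2 was 147 CPM in endothelial-like nuclei, 93.5 CPM in microglia or perivascular macrophage-like nuclei, 92.5 CPM in oligodendrocyte-like nuclei and 87.2 CPM in oligodendrocyte precursor (OPC)-like nuclei. Among neurons it was highest in Pvalb-like interneurons (56.5 CPM), Sst-like interneurons (36.5 CPM) and CA1-like pyramidal neurons (24.7 CPM). DG-like granule neurons had the lowest mean of all 19 classes, 1.91 CPM. From Vip-like interneurons (4.85 CPM) down to DG-like neurons, neighbouring classes overlapped between their replicates, so the order among these low classes is not set by the data. In all, 11 of the 18 neighbouring pairs overlapped in the flox/flox libraries.

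In the Syn-Cre libraries the order of levels was different. Pvalb-like interneurons had the highest mean, 127 CPM, and L2/3 IT-like neurons the lowest, 5.23 CPM, while DG-like neurons moved from the last to the 7th place with 58.0 CPM. In these libraries 10 of the 18 neighbouring pairs overlapped. The plot of Creb3l2 by class and library shows both orders.

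**Figure D1:**
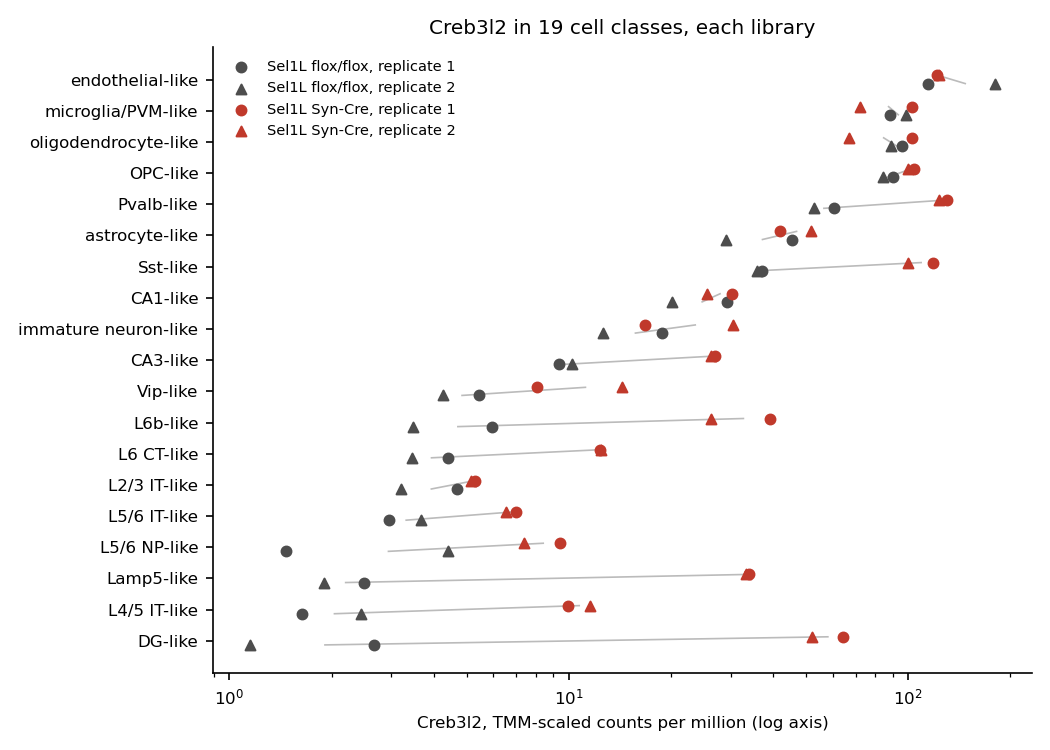
Creb3l2 level (TMM-scaled CPM, log axis) in each of the 4 libraries for every named class, with 1 point per library. DG-like neurons move from 1.15 to 2.67 CPM in the flox/flox libraries to 51.9 to 64.1 CPM in the Syn-Cre libraries, whereas in CA1-like neurons and OPC-like nuclei the libraries lie close together. The OPC-like points include nuclei rich in oligodendrocyte-lineage markers, without which Creb3l2 was called higher in Syn-Cre.

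In DG-like neurons Creb3l2 stood at 2.67 and 1.15 CPM in the flox/flox libraries (18 and 5 UMIs) and at 64.1 and 51.9 CPM in the Syn-Cre libraries (245 and 179 UMIs). The other members did not show such a distance in the same neurons. Creb3 stood at 7.58 and 7.60 CPM against 10.2 and 12.2 CPM, Mbtps1 at 47.5 and 44.7 against 44.2 and 44.7 CPM, and Mbtps2 at 63.0 and 68.9 against 68.3 and 61.2 CPM. Creb3l1 had 1 and 0 against 3 and 2 UMIs, and Creb3l4 had 1 UMI in the 4 libraries together. For Creb3l2 the groups lay far apart, at 30.3 times the level, which is the contrast by which the family was chosen and in which 3.5% of all tested genes were called in either direction.

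Among the 18 other classes, each with all of its nuclei, Creb3l2 rose in 6, all of them neurons, and fell in none. A subset of OPC-like nuclei, given below, had a call as well. The 6 classes were Lamp5-like and L6b-like neurons, L4/5 IT-like and L6 CT-like projection neurons, and Sst-like and Pvalb-like interneurons. The share of all tested genes called higher in the same classes was 0.287% in Lamp5-like, 0.141% in L6b-like, 1.09% in L4/5 IT-like, 0.424% in L6 CT-like, 4.7% in Sst-like and 2.14% in Pvalb-like neurons. Among classes without a member call, the share of genes called in either direction was 0.00756% in CA1-like, 0.0178% in Vip-like, 0.459% in L2/3 IT-like, 0.215% in L5/6 IT-like, 0.248% in L5/6 NP-like and 0.0193% in immature neuron-like nuclei. It was 1.22% in astrocyte-like nuclei, 0.0841% in microglia or perivascular macrophage-like nuclei and 0% in endothelial-like nuclei.

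Lamp5-like neurons, which include neurogliaform interneurons, had 2.50 and 1.90 CPM of Creb3l2 in the flox/flox libraries and 33.9 and 33.3 CPM in the Syn-Cre libraries, from 4 and 2 against 37 and 40 UMIs. The log2 fold change was 3.84 ± 0.42 (SE; adjusted p = 0.00323, edgeR). The flox/flox values rest on few UMIs, and both Syn-Cre libraries lay far above them.

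L6b-like neurons, the deepest cortical layer, had 5.96 and 3.47 CPM in the flox/flox libraries and 39.2 and 26.2 CPM in the Syn-Cre libraries, with a log2 fold change of 2.73 ± 0.46 (adjusted p = 0.0257). This call rests on 6 and 3 against 34 and 24 UMIs and did not pass without Syn-Cre replicate 1 (2.42, adjusted p = 0.0832) or with names made without integration of the libraries (2.72, adjusted p = 0.0541).

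L4/5 IT-like neurons had 1.63 and 2.45 CPM in the flox/flox libraries and 9.95 and 11.5 CPM in the Syn-Cre libraries (log2 fold change 2.42 ± 0.30, adjusted p = 0.00659). L6 CT-like neurons, which project to the thalamus, had 4.42 and 3.46 CPM in the flox/flox libraries and 12.4 and 12.5 CPM in the Syn-Cre libraries (1.62 ± 0.27, adjusted p = 0.0212). In both classes the lower Syn-Cre library lay well above the higher flox/flox library. The L6 CT-like call was lost when predicted doublets were kept (1.07, adjusted p = 0.14).

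Sst-like and Pvalb-like interneurons began from higher levels. Sst-like interneurons had 37.0 and 36.0 CPM of Creb3l2 in the flox/flox libraries and 119 and 99.8 CPM in the Syn-Cre libraries (1.58 ± 0.17, adjusted p = 8.41e-06). Pvalb-like interneurons had 60.3 and 52.7 CPM in the flox/flox libraries and 131 and 123 CPM in the Syn-Cre libraries (1.16 ± 0.15, adjusted p = 0.00115). Replicates of both classes lay close together relative to the distance between groups.

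Ranking by fold and ranking by added RNA gave different orders. By the ratio of group means the order was DG-like (30.3), Lamp5-like (15.3), L6b-like (6.94) and L4/5 IT-like (5.26). By the difference of group means it was Sst-like (72.7 CPM), Pvalb-like (70.4 CPM), DG-like (56.1 CPM), Lamp5-like (31.4 CPM) and L6b-like (28.0 CPM). CA3-like neurons gained 16.8 CPM by the same measure, L4/5 IT-like neurons 8.70 CPM and L6 CT-like neurons 8.48 CPM.

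In the other neuron classes Creb3l2 did not pass the threshold. CA3-like pyramidal neurons had 9.39 and 10.2 CPM in the flox/flox libraries and 27.1 and 26.2 CPM in the Syn-Cre libraries, without overlap, with a log2 fold change of 1.44 and an adjusted p of 0.126, where 0.0411% of all tested genes were called higher. It passed in CA3-like neurons when Syn-Cre replicate 1 (1.42, adjusted p = 0.00639) or Syn-Cre replicate 2 (1.46, adjusted p = 0.00683) was left out, and adjusted p ran from 0.00639 to 0.80 over the alternatives. In Vip-like interneurons the values were 5.42 and 4.27 against 8.09 and 14.3 CPM (1.13, adjusted p = 0.726). L2/3 IT-like neurons had 4.67 and 3.20 against 5.29 and 5.17 CPM (0.40 ± 0.29, adjusted p = 0.626). CA1-like neurons had the log2 fold change nearest to 0 of the main subtypes, with 29.3 and 20.2 against 30.3 and 25.5 CPM, and the groups overlapped (0.15 ± 0.20, adjusted p = 0.883). Without flox/flox replicate 2 the sign in CA1-like neurons turned (-0.08). L5/6 IT-like neurons had 2.96 and 3.68 CPM against 6.97 and 6.55 CPM (1.03, adjusted p = 0.331), and L5/6 NP-like neurons 1.47 and 4.42 against 9.45 and 7.37 CPM (1.67, adjusted p = 0.241). In neither of these classes did the groups overlap, although none passed over all genes. Of all tested genes, 19.6% in CA3-like, 20.0% in L5/6 IT-like and 19.8% in L5/6 NP-like neurons also had Syn-Cre above flox/flox without overlap. Immature neuron-like nuclei overlapped, with 18.9 and 12.6 against 16.7 and 30.5 CPM.

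Glial and vascular classes had no call of Creb3l2 when all of their nuclei were used. OPC-like nuclei had 90.0 and 84.5 CPM in the flox/flox libraries and 104 and 99.6 CPM in the Syn-Cre libraries (0.22 ± 0.18, adjusted p = 0.614). Without the OPC-like nuclei rich in oligodendrocyte-lineage markers, Creb3l2 passed (0.785, adjusted p = 0.00841), as given below. Oligodendrocyte-like nuclei had 95.9 and 89.1 against 103 and 66.8 CPM, and endothelial-like nuclei 115 and 180 against 122 and 123 CPM. Astrocyte-like nuclei had 45.4 and 29.0 against 42 and 51.9 CPM, and microglia or perivascular macrophage-like nuclei 88.4 and 98.7 against 103 and 72.2 CPM. The groups overlapped in these 4 classes.

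Over all neurons summed, including those without a subtype name, Creb3l2 stood at 9.85 and 7.67 CPM in the flox/flox libraries and at 23.6 and 20.4 CPM in the Syn-Cre libraries (1.32, adjusted p = 0.0253), where 0.134% of all tested genes were called higher. When predicted doublets were kept this value was 1.18 with an adjusted p of 0.0593.

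All 6 class calls of Creb3l2 stayed past the threshold without flox/flox replicate 1, the flox/flox library with Cre UMIs, with log2 fold changes from 1.27 in Pvalb-like to 4.06 in Lamp5-like neurons and adjusted p up to 0.00901. By class, Cre in that library was similar to the Syn-Cre libraries: 31.2 CPM in Pvalb-like interneurons against 28.6 and 25.8 CPM, 22.1 CPM in Sst-like interneurons against 17.3 and 14.0 CPM, and 6.98 CPM in DG-like neurons against 5.49 and 6.96 CPM. Creb3l2 in the same library lay far below both Syn-Cre libraries in these 3 classes, as the values above show. The mean Cre level of the Syn-Cre libraries was lowest among the 11 subtypes in CA1-like neurons, 0.247 CPM from 1 UMI in each library. L5/6 NP-like neurons, outside these subtypes, were as low (0.246 CPM, from 0 and 1 UMIs) with a Creb3l2 log2 fold change of 1.67 that did not pass. It was also counted in OPC-like nuclei, at 14.1 CPM in flox/flox replicate 1 and 17.8 and 11.6 CPM in the Syn-Cre libraries. Across the 11 neuron subtypes, which come from the same libraries, mean Cre level and the Creb3l2 log2 fold change had a Spearman rho of 0.627. With mean Cre as log2(CPM + 1), Pearson's r was 0.399, and both are given as a description. Without DG-like neurons, by whose Creb3l2 counts the family was chosen, rho was 0.636 and r was 0.439. The part of Cre in these values was not tested.

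To ask whether subtypes differed in their Creb3l2 response, each subtype was set against CA1-like neurons in 1 model with library as a block. The response was larger than in CA1-like neurons in 5 of 9 subtypes. CA1-like neurons had the log2 fold change nearest to 0 of the main subtypes, so these tests do not show whether the other subtypes differ from each other. In the authors' staining, SEL1L was largely kept in CA1, lost in nearly all neurons of CA3 and the dentate gyrus, and lost in a part of cortical neurons. The part of this unequal loss in the differences below was not tested. The difference of log2 fold changes was 3.71 ± 0.45 in Lamp5-like (adjusted p = 0.00086), 2.29 ± 0.34 in L4/5 IT-like (adjusted p = 0.0229), 1.52 ± 0.27 in L6 CT-like (adjusted p = 0.0218), 1.38 ± 0.21 in Sst-like (adjusted p = 0.000544) and 0.97 ± 0.19 in Pvalb-like neurons (adjusted p = 0.00508). The share of all genes called as larger in these models was 0.0804%, 0.165%, 0.208%, 1.78% and 1.12% in the same order. CA3-like (1.29, adjusted p = 0.111), Vip-like (0.998, adjusted p = 0.881), L5/6 IT-like (0.889, adjusted p = 0.801) and L2/3 IT-like neurons (0.268, adjusted p = 0.815) did not pass, with 0.0584%, 0%, 0% and 0.121% of all genes called as larger. Some of these differences did not pass when 1 library was left out, in fits that hold a single library in 1 group. Without flox/flox replicate 1, the library with Cre UMIs, the differences in L6 CT-like (1.37, adjusted p = 0.0772) and Pvalb-like neurons (0.77, adjusted p = 0.138) did not pass. Without Syn-Cre replicate 1 those in L4/5 IT-like (2.54, adjusted p = 0.0665) and L6 CT-like neurons (1.60, adjusted p = 0.158) did not pass, and without Syn-Cre replicate 2 the same 2 classes did not (2.07, adjusted p = 0.16 and 1.39, adjusted p = 0.271). The difference in CA3-like neurons passed without flox/flox replicate 2 (1.55, adjusted p = 0.00135). With Vip-like neurons as the reference none of the differences passed. DESeq2 gave an adjusted p for 6 of the 9 subtypes, of which Lamp5-like neurons passed, and gave none for L4/5 IT-like (2.24), L6 CT-like (1.48) and L2/3 IT-like neurons (0.25).

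**Figure D2:**
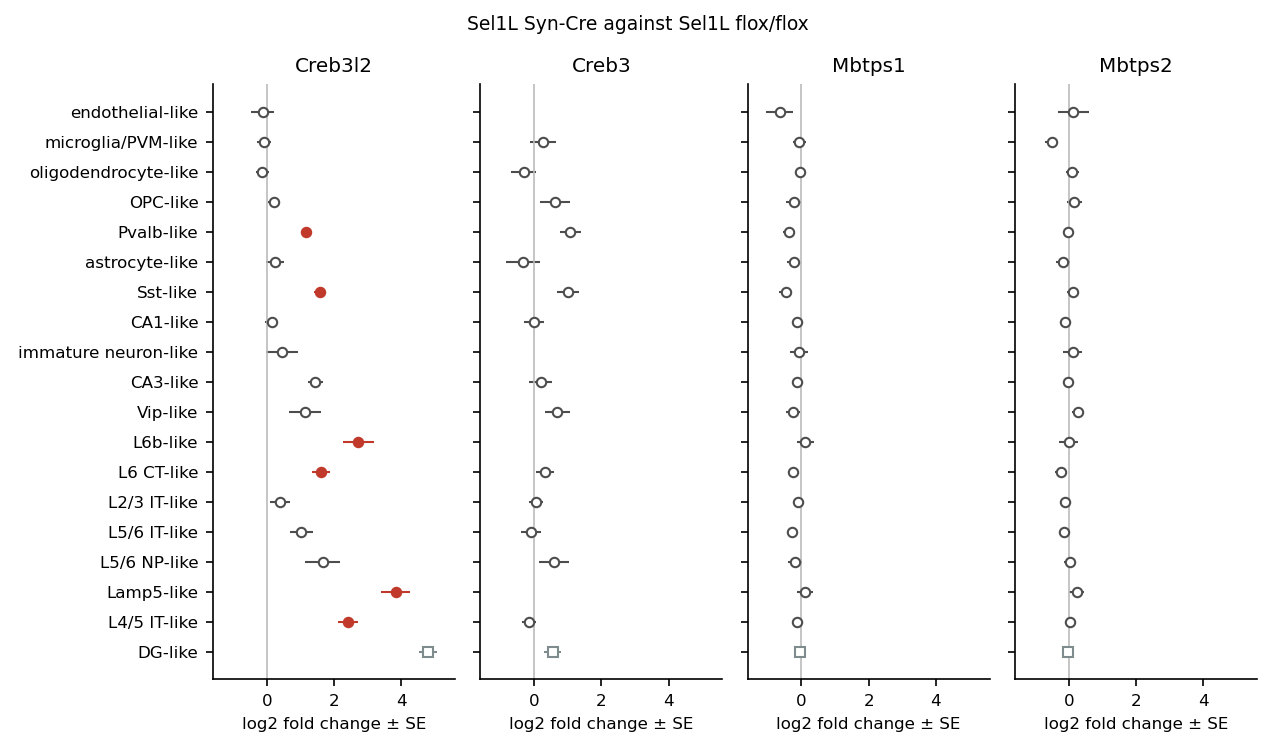
Log2 fold change (Syn-Cre minus flox/flox, with standard error) of the members in each class in which they were tested, with filled red points past an adjusted p of 0.05, open points not past it and grey squares for DG-like neurons, which have no test. The 4 panels show Creb3l2, Creb3, Mbtps1 and Mbtps2; Creb3l2 has filled points in 6 neuron classes, and no point of the other 3 genes is filled.

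The share of nuclei with at least 1 Creb3l2 UMI was compared after thinning each nucleus to 2000 UMIs. In DG-like neurons the shares were 0.119% and 0.380% in the flox/flox libraries and 9.69% and 8.24% in the Syn-Cre libraries, as a description. Without thinning they were 2.00% and 0.949% against 35.9% and 30.4%. In L2/3 IT-like neurons, where Creb3l2 had the lowest Syn-Cre level, thinned values were 0.758% and 0.429% against 1.24% and 0.788%. These are a comparison and not a floor, since L2/3 IT-like neurons do hold Creb3l2 UMIs.

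Pvalb-like interneurons had Creb3l2 in 12.1% and 10.0% of thinned flox/flox nuclei and 24.2% and 24.8% of thinned Syn-Cre nuclei. Sst-like interneurons had 5.53% and 9.78% against 14.8% and 20.0%, and Lamp5-like neurons 0.613% and 0% against 3.28% and 10.1%, where the 0 of 124 nuclei leaves a Wilson interval up to 3.0%. In these 3 classes the groups did not overlap. L4/5 IT-like neurons had 0.28% and 0.621% against 1.18% and 2.05%, without overlap. The lower Syn-Cre share lay inside the range of the libraries of L2/3 IT-like neurons. CA3-like neurons had 2.02% and 0.69% against 5.96% and 3.42%. L6b-like neurons had a UMI in 0 of 66 and 0 of 63 flox/flox nuclei, with Wilson intervals up to 5.5% and 5.75%, against 3.17% and 4.84%, which is not a detectable difference at this depth. L6 CT-like neurons overlapped, with 1.16% and 0.68% against 1.01% and 2.81% (exact p = 0.667). CA1-like neurons had 2.92% and 3.93% against 5.45% and 6.96%, also without overlap, although their CPM overlapped. Their group means were 7.49% against 10.9% at 4000 UMIs, and 25.3% against 26.6% without thinning. The exact two-sided permutation test gave 0.333 for each class without overlap, the smallest p that 2 against 2 libraries allow, so the design cannot reach 0.05 for shares.

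**Figure D3:**
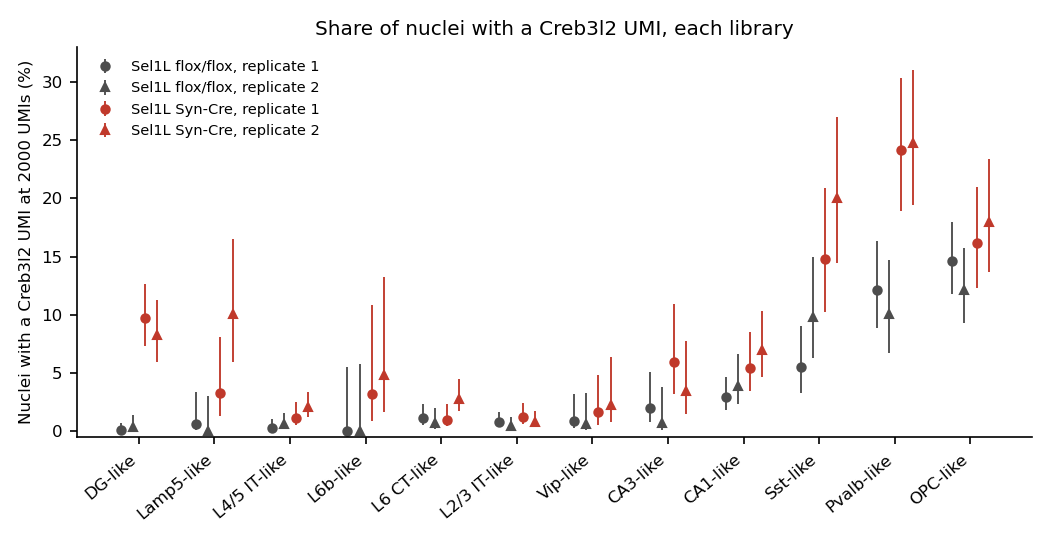
Percent of nuclei with a Creb3l2 UMI after thinning to 2000 UMIs, per library for 11 neuron classes and OPC-like nuclei, with 95% Wilson intervals that cover counting error only. Syn-Cre libraries lie above both flox/flox libraries in Pvalb-like (24.2% and 24.8% against 12.1% and 10.0%) and Sst-like interneurons, and the 4 libraries of L2/3 IT-like neurons lie between 0.429% and 1.24%.

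Stress genes were counted in the same thinned nuclei of the Syn-Cre DG-like class, of which 47 and 35 held a Creb3l2 UMI, against 175 and 129 without thinning. Derl3, a derlin of the degradation channel, was counted in 14.9% and 11.4% of nuclei with Creb3l2 and in 12.6% and 7.44% of those without, which is higher in both libraries but rests on 7 and 4 nuclei with both genes. Hspa5, the ER chaperone BiP, was counted in 23.4% and 28.6% of nuclei with Creb3l2 and in 26.7% and 19.7% of those without, so that its direction differed between the libraries. No test was made of either difference. DG-like neurons are the class by whose Creb3l2 counts the family was chosen, so these shares are a description only. Counts in other classes and of further stress genes are not given here.

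Creb3l1 (chr2:91982328-92024502, minus strand) was sparse, with 339 UMIs in the named classes, and was tested in 3 of the 18 classes. Its flox/flox means were highest in endothelial-like (12.1 CPM, from few UMIs) and astrocyte-like nuclei (8.18 CPM). It rose in OPC-like nuclei, glia that divide and give rise to oligodendrocytes. There it stood at 3.53 and 1.15 CPM in the flox/flox libraries (8 and 2 UMIs) and at 23.1 and 24.2 CPM in the Syn-Cre libraries (26 and 25 UMIs), a log2 fold change of 3.21 ± 0.47 (adjusted p = 2.39e-06) where 3.6% of all tested genes were called higher. The UMIs came from 7 of 506 and 2 of 422 flox/flox nuclei and from 22 of 284 and 24 of 248 Syn-Cre nuclei. The call also passed without flox/flox replicate 1 (4.24, adjusted p = 4.23e-07).

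The makeup of the OPC-like class moved with the label. The summed oligodendrocyte markers stood at 3798 and 2745 CPM in the flox/flox libraries and at 111 and 172 CPM in the Syn-Cre libraries, and the immature oligodendrocyte markers at 3345 and 3005 against 1239 and 1213 CPM. OPC markers were at 6945 and 7467 against 6072 and 6398 CPM, and astrocyte markers at 3763 and 4075 against 4796 and 4802 CPM. After leaving out the 90, 51, 5 and 1 nuclei whose oligodendrocyte-lineage markers outnumbered their OPC markers, an alternative chosen after seeing the data, every Creb3l1 UMI remained and the log2 fold change was 2.90 ± 0.47 (adjusted p = 0.000106). In the same subset Creb3l2 passed as well, at 109 and 79 UMIs against 116 and 101 UMIs (0.785 ± 0.18, adjusted p = 0.00841), with 2.12% of 11183 genes called higher. The remaining part of this makeup in either value was not tested.

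In the other classes Creb3l1 made no call. Astrocyte-like nuclei had a log2 fold change of 0.145 (adjusted p = 0.951), and L6 CT-like neurons, with 3 and 2 against 19 and 11 UMIs, had 2.62 (adjusted p = 0.114). Endothelial-like nuclei stood at 9.17 and 15 CPM in the flox/flox libraries and at 26.9 and 20.6 CPM in the Syn-Cre libraries, from 4 and 1 against 17 and 7 UMIs, too few to be tested.

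**Figure D4:**
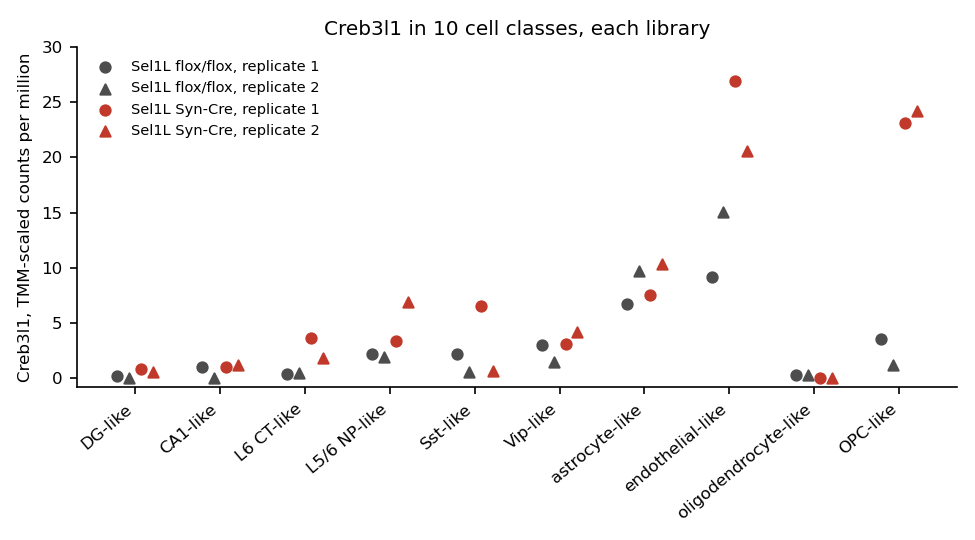
Creb3l1 level (TMM-scaled CPM) in each of the 4 libraries in 10 classes, with 1 point per library. OPC-like nuclei separate into 1.15 and 3.53 CPM in the flox/flox libraries and 23.1 and 24.2 CPM in the Syn-Cre libraries, and the 4 libraries of astrocyte-like nuclei lie between 6.68 and 10.4 CPM.

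Creb3 (chr4:43562332-43567060, plus strand), the founding member, was spread evenly, with flox/flox means from 4.64 CPM in L5/6 NP-like neurons to 15.5 CPM in endothelial-like nuclei, and 15 of 18 neighbouring classes overlapped. The endothelial-like mean rests on few UMIs, since that class had 36 nuclei in flox/flox replicate 2. Creb3 was tested in 14 of the 18 classes and passed in none, although some alternatives gave a call in 2 classes. The lowest adjusted p values were in the same interneurons in which Creb3l2 rose. In Sst-like interneurons Creb3 stood at 8.70 and 7.52 CPM in the flox/flox libraries and at 18.4 and 14.6 CPM in the Syn-Cre libraries (1.01 ± 0.33, adjusted p = 0.0653). Pvalb-like interneurons had 7.72 and 6.74 against 18.1 and 12.7 CPM (1.07 ± 0.31, adjusted p = 0.0888). Groups did not overlap in either class. Of all tested genes, 26.6% in Sst-like and 23.9% in Pvalb-like interneurons also had Syn-Cre above flox/flox without overlap. In Sst-like interneurons Creb3 passed with no filter on low counts (1.00, adjusted p = 0.038) and with doublets kept (1.09, adjusted p = 0.0345), and adjusted p ran from 0.0345 to 0.494 over the alternatives. In Pvalb-like interneurons it passed with no filter (1.05, adjusted p = 0.0219) and without Syn-Cre replicate 2 (1.30, adjusted p = 0.0191), in a range from 0.0191 to 0.507. CA1-like neurons, for comparison, had 7.94 and 7.62 against 8.99 and 6.62 CPM. Against CA1-like neurons the difference in log2 fold change did not pass in Pvalb-like (1.03, adjusted p = 0.233) or Sst-like interneurons (0.951, adjusted p = 0.258). Creb3 overlaps Tln1 and Gba2, both on the opposite strand, and the part of this overlap in its counts was not tested.

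Creb3l4 (chr3:90237500-90243512, minus strand) was near absent, with 51 UMIs over all named classes, and no single class could be tested. Over all neurons summed it had 10 and 10 UMIs in the flox/flox libraries and 9 and 15 UMIs in the Syn-Cre libraries (0.484, adjusted p = 0.731).

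Both protease genes were counted in all classes and passed in none. Mbtps1 (chr8:119508156-119558735, minus strand) encodes the serine protease that makes the first, lumenal cut. Its flox/flox means ran from 36.6 CPM in L4/5 IT-like neurons to 74.1 CPM in endothelial-like nuclei, and 17 of 18 neighbouring classes overlapped. The endothelial-like libraries stood at 45.0 and 103 CPM, the class with few UMIs in flox/flox replicate 2. The log2 fold change of Mbtps1 was below 0 in 16 and above 0 in 2 of the 18 classes, and over all neurons it was -0.17 (adjusted p = 0.459). The lowest p was in Sst-like interneurons, where Mbtps1 stood at 53.3 and 60.7 CPM in the flox/flox libraries and at 35.8 and 46.9 CPM in the Syn-Cre libraries (-0.46, adjusted p = 0.152). Mbtps2 (chrX:157535371-157598715, minus strand) encodes the metalloprotease that makes the second cut, within the membrane. Its flox/flox means ran from 34.3 CPM in CA1-like neurons to 113 CPM in microglia or perivascular macrophage-like nuclei, with DG-like neurons second at 65.9 CPM, where 15 of 18 neighbouring classes overlapped. It was below 0 in 9 and above 0 in 9 classes, and the largest difference was in microglia or perivascular macrophage-like nuclei, with 114 and 112 CPM in the flox/flox libraries and 67.9 and 93.4 CPM in the Syn-Cre libraries (-0.50, adjusted p = 0.542). Mbtps2 shares an exon with Yy2 on the same strand and lies on the X chromosome, while the replicates of each group differ in sex, whose part in these values was not tested.

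The other substrates of these proteases and their escort proteins were listed as 8 genes. The calls in this list were Atf6, the ER stress sensor that is cut in the same way, in Sst-like (1.17, adjusted p = 0.000307) and Pvalb-like interneurons (0.86, adjusted p = 0.0305). Of all tested genes, 4.7% in Sst-like and 2.14% in Pvalb-like interneurons were called higher. The authors reported Atf6 RNA as unchanged in their neuron clusters. Sterol pathway members of the list, such as Srebf2 and Scap, were called in none of the 18 classes. In both interneuron classes 7 of the 8 genes were tested, with a median log2 fold change of 0.14 in Sst-like and 0.40 in Pvalb-like interneurons.

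Genes known as CREB3-family targets in other cells were listed as 6 genes. In Sst-like and in Pvalb-like interneurons all 5 tested members rose, where 4.7% and 2.14% of all tested genes were called higher: Sec24d, Herpud1, Edem1, Arf4 and Sec23a. Sec24d, a cargo-selecting subunit of the COPII coat that carries proteins out of the ER, stood at 18.9 and 12.4 CPM in flox/flox and 119 and 77.3 CPM in Syn-Cre Sst-like interneurons (2.61, adjusted p = 1.81e-06). Pvalb-like interneurons had 11.9 and 12.2 against 90.2 and 62.4 CPM (2.66, adjusted p = 0.000104). Herpud1, a partner of the HRD1 ligase, and Edem1, which trims mannose from misfolded glycoproteins, are also part of the unfolded protein response, so the list is not specific to this family. In Lamp5-like, L6b-like and L6 CT-like neurons, where Creb3l2 also rose, 1 of 5 tested genes was called, Herpud1. Herpud1 was also called in CA3-like, L5/6 IT-like, L5/6 NP-like and oligodendrocyte-like nuclei, which had no call of Creb3l2. The median log2 fold change of the list was 1.08 in Sst-like and 1.40 in Pvalb-like interneurons, beside 0.01 and 0.01 over all tested genes.

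Sec24d also rose in OPC-like nuclei, from 15.9 and 21.3 CPM to 55.9 and 39.7 CPM (1.38, adjusted p = 0.000248), and in L4/5 IT-like neurons, from 12.7 and 13.5 CPM to 26.8 and 23.0 CPM (0.92, adjusted p = 0.0250). Sec23a, the inner coat subunit tied to Creb3l2 in cartilage, stood at 64.8 and 53.9 CPM in flox/flox and 105 and 97.0 CPM in Syn-Cre Pvalb-like interneurons (0.76, adjusted p = 0.0162), and rose in Sst-like interneurons by a log2 fold change of 0.51 (adjusted p = 0.0409).

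Of the 17 COPII coat and ER exit site genes, 15 were tested in Sst-like interneurons, where 4.7% of all tested genes were called higher. Of these 15, 7 rose: Sec24d, Sec16a, Sec31a, Sec23b, Mia2, Mia3 and Sec23a. The median log2 fold change of this list was 0.593, beside 0.01 over all tested genes. In Pvalb-like interneurons 3 of 15 rose (Sec24d, Sec23b and Sec23a), with a median of 0.403, where 2.14% of all tested genes were called higher. In OPC-like nuclei 2 rose, Sec24d and Sec23b, where 3.6% of all genes were called higher. Over all 19 classes, DG-like neurons included, this list had 15 calls with edgeR and 7 with DESeq2. Of the edgeR calls, 2 were in DG-like neurons, where 3.5% of all tested genes were called in either direction. Another 1 was in L4/5 IT-like neurons, where 1.09% were called higher.

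**Figure D5:**
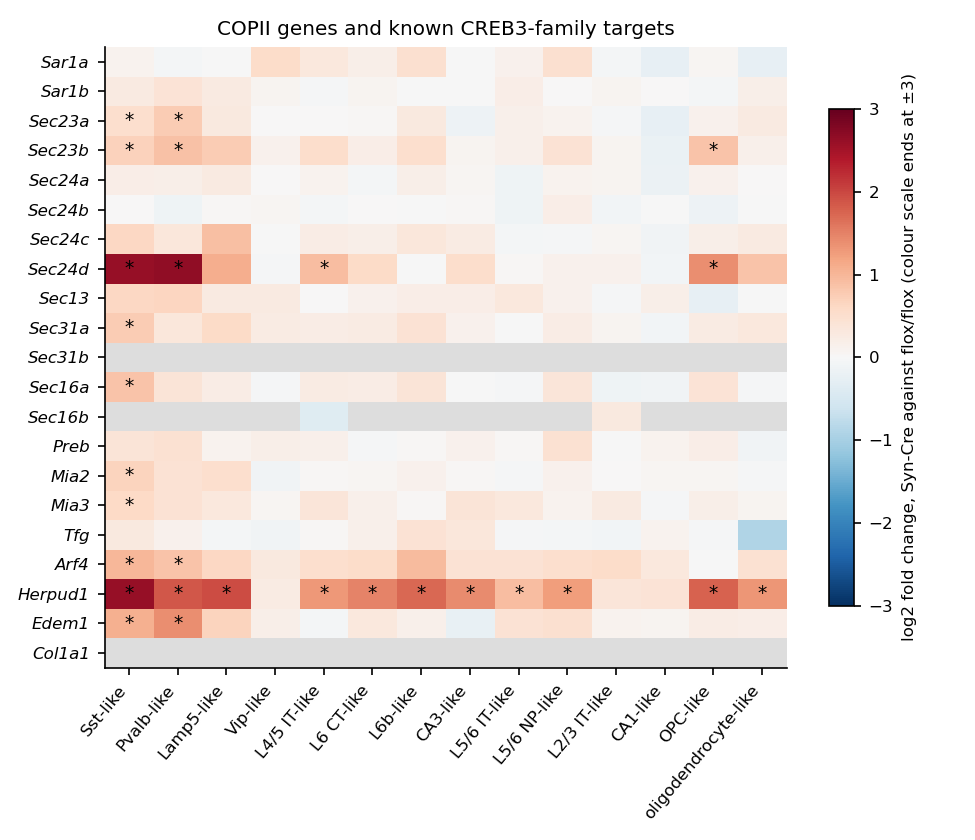
Log2 fold change (Syn-Cre minus flox/flox, colour) of COPII and target genes by class, with stars for an adjusted p under 0.05 and grey where a gene was below the filter on low counts. Stars are most numerous in Sst-like interneurons, where 7 COPII genes pass and 4.7% of all tested genes were called higher. Sec24d has the largest value there at 2.61.

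Other CREB and ATF factors were listed as 13 genes, and 10 calls were made over the 19 classes, of which 1, Atf5, was in DG-like neurons. Creb3l3, which belongs to the CREB3 family, was placed in this list and made no call. In Sst-like interneurons 3 of 10 tested genes were called higher, where 4.7% of all genes were, and in OPC-like nuclei 1 of 11 higher and 1 of 11 lower, where 3.6% and 5% of all genes were. Atf5, a bZIP factor of stress responses, rose in OPC-like nuclei from 6.62 and 6.90 CPM to 92.3 and 90.9 CPM (3.75, adjusted p = 8.0e-14), and in Sst-like interneurons by 2.69 on the log2 scale. Atf4, the main effector of the integrated stress response, and Crem rose in Sst-like interneurons. The authors reported Atf4 RNA as unchanged in their neuron clusters. Creb5 fell in Pvalb-like interneurons (-1.56, adjusted p = 0.000788) and in OPC-like nuclei (-0.65, adjusted p = 0.00467), where 1.87% and 5% of all tested genes were called lower. In the OPC-like subset without nuclei rich in oligodendrocyte-lineage markers, Creb5 did not pass (-0.12, adjusted p = 0.858). Atf5 still passed in that subset (3.93, adjusted p = 5.25e-11).

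The unfolded protein response readouts were listed as 16 genes, among them chaperones, sensors and effectors. All 16 rose in Sst-like interneurons (4.7% of all tested genes), 12 of 16 in Pvalb-like interneurons (2.14%), 11 of 16 in L4/5 IT-like neurons (1.09%), 12 of 15 in OPC-like nuclei (3.6%) and 8 of 15 in Lamp5-like neurons (0.287%). In L6 CT-like neurons 3 of 14 rose (0.424%) and in L6b-like neurons 2 of 12 (0.141%), both with a call of Creb3l2. In CA3-like neurons 3 of 14 rose (0.0411%) and in oligodendrocyte-like nuclei 6 of 14, where 0.706% of all tested genes were called higher, both without a call of Creb3l2. In CA1-like neurons none of the 13 tested readouts passed.

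Markers of other cell types were checked beside the neuronal calls. The summed endothelial markers, 6 genes, were higher in both Syn-Cre libraries in Lamp5-like, L6b-like, L4/5 IT-like, Pvalb-like and Sst-like neurons, from 12.4 to 37.5 CPM in the flox/flox libraries to 28.7 to 63.0 CPM in the Syn-Cre libraries. The number of these 6 genes with a higher Syn-Cre mean was 3, 4, 4, 6 and 4 in the same order. In L6 CT-like neurons the groups overlapped for this list. The same sum was 3422 to 4818 CPM in endothelial-like nuclei, where Creb3l2 had a mean of 147 CPM in the flox/flox libraries, and the part of such RNA in the neuronal values was not tested. Other lists were also higher in both Syn-Cre libraries in single classes. The OPC list stood at 295 and 228 against 317 and 388 CPM in L4/5 IT-like neurons and at 442 and 398 against 443 and 448 CPM in L6 CT-like neurons, beside 6072 to 7467 CPM in OPC-like nuclei, where Creb3l2 stood at 84.5 to 104 CPM. The pericyte list stood at 3.70 and 2.81 against 9.99 and 5.08 CPM in L6 CT-like and at 2.05 and 3.68 against 6.56 and 4.37 CPM in Sst-like neurons. The microglial list stood at 56.2 and 79.6 against 85.2 and 84.1 CPM in Pvalb-like interneurons. In Sst-like interneurons the immature oligodendrocyte list stood at 14.4 and 13.7 against 19.1 and 19.4 CPM, and the vascular fibroblast list was at or below 3.83 CPM there and at or below 1.94 CPM in L4/5 IT-like neurons. Their part in the Creb3l2 values was not tested either.

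The genes whose levels followed Creb3l2 most closely over the 44 combinations of 11 neuron subtypes and 4 libraries were found among 11867 genes by Pearson's r of log2(CPM + 1). They were Cdkl3 (0.835), Sec31a (0.827), Copg1 (0.820), Mapk8ip3 (0.809) and Sec24c (0.806). Over the 22 flox/flox combinations the values were 0.740, 0.713, 0.648, 0.740 and 0.715 in the same order. Hspa5 ranked 203 and Derl3 ranked 229 (0.671), and Creb3 ranked 512. Over the flox/flox combinations alone their values were -0.005, -0.138 and 0.116 in the same order. Sec24d, also of the COPII coat, ranked 1819 (0.462), with -0.312 over the flox/flox combinations. Mbtps2 ranked 2682 (0.395, flox/flox 0.141) and Mbtps1 ranked 4338 (0.283, flox/flox 0.509). The points share libraries and depth and include DG-like neurons, by whose Creb3l2 counts the family was chosen, so these values are a description. No ranking without DG-like neurons was made.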

How the data were processed

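Nuclei of cortex and hippocampus were profiled by 10x Genomics 3′ v3 single-nucleus RNA-seq, and the authors deposited raw UMI counts per nucleus and feature made with Cell Ranger 6.1.0 on GRCm38, per the labels. Nuclei with over 600 genes and under 5% mitochondrial UMIs were kept, and those with the highest Scrublet scores (scanpy 1.11.5; 0.8% per 1000 nuclei) were left out. Libraries were integrated and clustered in Seurat 5.3.0 (17 dimensions, 2000 variable features, resolution 0.2, then 0.4 for neurons), and clusters were named from fixed markers, requiring at least 3 detected. Median UMIs per nucleus were 7244.5 to 8397.

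UMIs were summed per class and library, for classes with at least 30 nuclei in every library, and tested by edgeR 4.0.16 (quasi-likelihood test, TMM, filterByExpr, prior count 0.125) with Benjamini-Hochberg adjustment over all genes tested in the class and a threshold of 0.05. Differences between subtypes were tested in the same way with library as a block. Tests were checked on simulated data, where 200 of 200 genes changed 4-fold were recovered in each of the Sst-like, Lamp5-like and L4/5 IT-like classes, with 9, 15 and 7 others called. The changed genes were drawn from those with at least 200 UMIs over the libraries, at a fixed dispersion. Recovery of sparser genes, such as Creb3l2 in Lamp5-like and L4/5 IT-like neurons, was therefore not checked. Wilson intervals are at 95% and, like all counting limits here, cover counting error only. Shares used an exact permutation test over 6 arrangements.

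All members are reported whatever their values, and of each of 5 context lists up to 4 genes per class with the largest changes past the threshold were eligible to be named; further names complete the counts given. The 5 genes most like Creb3l2 were taken among genes with a mean of at least 5 CPM, with a pseudocount of 1. The members and lists were chosen with earlier results of these data known. Alternatives were DESeq2 1.42.0 (test and size factors), no filter on low counts, doublets kept, names without integration, equal depth, a replicate block, and each library left out. Names without integration were the same for a median of 99.4% of a class's nuclei (lowest 65.1%, L5/6 IT-like). Promoters were taken from RefSeq GRCm38.p6, and gene positions from the GRCm38 annotation.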

Additional observations from a re-analysis of the deposited data

Results flagged for a closer look

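Against CA1-like neurons, the Creb3l2 log2 fold change was larger in some neuron subtypes by a test of the difference itself. It was larger by 3.71 in Lamp5-like, 2.29 in L4/5 IT-like, 1.52 in L6 CT-like, 1.38 in Sst-like and 0.97 in Pvalb-like neurons (edgeR, adjusted p from 0.000544 to 0.0229). The reference was chosen among the subtypes and had the log2 fold change nearest to 0 of the main subtypes (0.15). Against Vip-like neurons no difference passed. These tests therefore do not show whether the subtypes other than CA1-like differ from each other. SEL1L was largely kept in CA1 in the authors' staining, and the part of this in the differences was not tested. Without flox/flox replicate 1 those in L6 CT-like and Pvalb-like neurons did not pass, and without either Syn-Cre library those in L4/5 IT-like and L6 CT-like neurons did not.

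The Cre feature, which belongs to no comparison of the members, had 409 UMIs in the library labelled flox/flox replicate 1 and 0 in flox/flox replicate 2.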

How the results depend on the processing

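The calls of Creb3l2 in Sst-like, Pvalb-like, Lamp5-like and L4/5 IT-like neurons and of Creb3l1 in OPC-like nuclei kept their direction and stayed past the threshold under every alternative in which the gene was tested. At equal depth Creb3l2 was below the filter on low counts in L4/5 IT-like neurons and had no call there. Keeping doublets ended the Creb3l2 calls in L6 CT-like neurons (1.07, adjusted p = 0.14; 1.76e-06 to 0.14 over the alternatives) and in pooled neurons (1.18, adjusted p = 0.0593), and gave 3.88 in DG-like neurons, where equal depth gave 3.70. In L6b-like neurons names without integration gave 2.72 (adjusted p = 0.0541), and leaving out 1 library gave 2.41 to 3.18. In CA1-like neurons leaving out 1 library gave -0.0761 to 0.46. The causes were not tested.

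Differences between subtypes were less stable. With Vip-like neurons as the reference they were -0.78 (L2/3 IT-like), -0.10 (L5/6 IT-like), 1.26 (L4/5 IT-like), 0.47 (L6 CT-like), 0.0044 (Pvalb-like), 0.49 (Sst-like) and 2.69 (Lamp5-like). DESeq2 gave 0.96 (adjusted p = 0.492) in Pvalb-like and 1.37 (adjusted p = 0.0576) in Sst-like neurons. Without 1 library they ranged from 1.67 to 2.78 in L4/5 IT-like, 1.37 to 1.60 in L6 CT-like and 0.77 to 1.11 in Pvalb-like neurons. The number past the threshold, 5 of 9, was 1 of the 6 that had an adjusted p with DESeq2, 0 with the Vip-like reference and 3 to 6 without 1 library: 3 without flox/flox replicate 1, without Syn-Cre replicate 1 and without Syn-Cre replicate 2.

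The CREB and ATF list had 10 calls, and 16 with no filter on low counts. The COPII list had 15, and 7 with DESeq2. Summed over classes, 3734 genes were called, 2347 with DESeq2, 8651 with no filter, 6794 with the replicate block and 4127 to 7658 without 1 library, the highest without flox/flox replicate 2. In the replicate block the number of member calls was 9 against 7, with Creb3 in Sst-like (1.02, adjusted p = 0.0431) and Creb3l1 in L6 CT-like neurons (2.70, adjusted p = 0.0408) added. Same-numbered libraries had correlations of their deviations from -0.11 to 0.24 over the classes, and with 2 pairs the numbers were not taken as pairing the mice. By Xist, the replicate number coincided with sex in both groups, so the replicate block is also a block of sex. The main model had no term for sex, so the spread within each group includes any difference between the sexes. Equal depth was not run for endothelial-like, immature neuron-like and pooled nuclei, and at equal depth Creb3l2 was below the filter in L4/5 IT-like, L6 CT-like, L2/3 IT-like, L5/6 IT-like, L5/6 NP-like and Vip-like neurons. DESeq2 gave no adjusted p for Creb3l2 in L6b-like or CA3-like neurons or for its differences in L4/5 IT-like, L6 CT-like and L2/3 IT-like neurons. Depth limits Creb3l4 and Creb3l1 most, with 51 and 339 UMIs in the named classes.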
